A study of Rattus norvegicus with 23 samples.

Results

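The 9 genes studied here belong to cholesterol synthesis and were followed in blood mononuclear cells of weanling rats. They were Srebf2, which encodes the transcription factor SREBP2, and the enzyme genes Hmgcs1, Idi1, Fdps, Fdft1, Sqle, Cyp51, Tm7sf2 and Dhcr7. A probe belonged to the set when the scanner files gave it the symbol of a member and did not mark it as a control. This rule found 14 of the 41012 probes on the array, for all 9 genes, and all 14 passed the filter on dim probes. The 9 genes stood among 10028 named genes and 20756 features in all that were tested.

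The samples were peripheral blood mononuclear cells (PBMC), lymphocytes and monocytes separated from trunk blood, of Wistar pups aged 21 days. The 4 groups were compared: 5 male and 6 female pups of dams fed 20% fewer calories throughout lactation (CR), and 6 male and 6 female pups of dams fed freely (control). Each of the 23 arrays paired the Cy5-labelled RNA of 1 pup with a Cy3-labelled equimolar pool of all samples, with no dye swap, so each value is a log2 ratio of that pup to the pool. The study had 16 litters, from 5 CR and 11 control dams, and which pup came from which litter is not labelled. Littermates were therefore treated as independent, and p-values may be too small. All pups were fed chow, and their own genotype was not altered.

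Cholesterol is built from acetyl-CoA through mevalonate, isoprenoid diphosphates, squalene and a series of sterols. SREBP2 waits in the membrane of the endoplasmic reticulum, and when sterols run low it is carried to the Golgi, cleaved and sent to the nucleus, where it switches on the enzyme genes. Much of this control acts on the protein, so the Srebf2 transcript is not a measure of SREBP2 activity. In lymphocytes the pathway supplies membrane for dividing cells, and its isoprenoids anchor small GTPases.

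Between 20603 and 24076 probes per array were well above background in Cy5 (median 22487), and the arrays' median Cy5 intensities were 55.3 to 65.3 against local backgrounds of 27 to 30. The number of arrays limits the precision. A difference had a typical (median) standard error of 0.0569 log2 units for the mean of the sexes, 0.0823 in males and 0.0785 in females. The labelled cell type was checked on marker genes. All 9 B cell markers with a named probe, 12 of 14 T cell markers and 9 of 12 monocyte markers were well above background on all 23 arrays. So were some markers listed for other blood cells: 6 of 10 neutrophil, 5 of 6 platelet and 8 of 8 red cell markers. Of the neutrophil list, S100a8, S100a9, Mpo, Csf3r, Camp and Lcn2 were well above background on all 23 arrays, and Cxcr2, Mmp8, Mmp9 and Ltf on 1 to 5.

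The promoters of 5 members are shown because each holds letters through which SREBP or its partner NF-Y is known to act, at least 1 of the 2 motifs named next. RefSeq, on the rat build GRCr8, gave a promoter for 7 members: Srebf2, Hmgcs1, Idi1, Fdps, Cyp51, Tm7sf2 and Dhcr7. Each runs from 250 bases before the transcription start to 50 after it, 5′ to 3′ on the strand of the gene. Capitals mark CACCCCA, the core of a sterol regulatory element, and CCAAT, the NF-Y box, or the reverse complement of either.
Srebf2, chr7:115543057-115543356 (plus strand): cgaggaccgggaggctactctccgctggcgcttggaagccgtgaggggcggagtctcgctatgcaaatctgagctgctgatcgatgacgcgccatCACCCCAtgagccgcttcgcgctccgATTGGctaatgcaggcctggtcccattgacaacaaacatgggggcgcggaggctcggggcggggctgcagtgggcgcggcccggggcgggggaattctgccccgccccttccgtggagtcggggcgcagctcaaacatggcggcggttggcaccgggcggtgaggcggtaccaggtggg
Tm7sf2, chr1:212789492-212789791 (minus strand): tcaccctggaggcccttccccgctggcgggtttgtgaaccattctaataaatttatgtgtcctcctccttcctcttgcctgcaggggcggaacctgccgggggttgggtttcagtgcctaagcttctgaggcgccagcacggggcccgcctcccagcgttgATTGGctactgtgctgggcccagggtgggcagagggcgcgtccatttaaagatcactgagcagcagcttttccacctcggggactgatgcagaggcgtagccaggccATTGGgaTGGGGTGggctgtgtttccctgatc
Hmgcs1, chr2:53382054-53382353 (plus strand): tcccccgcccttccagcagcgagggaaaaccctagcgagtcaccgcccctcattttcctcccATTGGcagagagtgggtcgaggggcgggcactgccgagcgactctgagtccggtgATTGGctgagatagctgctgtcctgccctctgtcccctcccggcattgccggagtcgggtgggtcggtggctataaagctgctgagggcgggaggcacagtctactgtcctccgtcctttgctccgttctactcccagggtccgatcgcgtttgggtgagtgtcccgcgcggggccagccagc
Idi1, chr17:66547475-66547774 (minus strand): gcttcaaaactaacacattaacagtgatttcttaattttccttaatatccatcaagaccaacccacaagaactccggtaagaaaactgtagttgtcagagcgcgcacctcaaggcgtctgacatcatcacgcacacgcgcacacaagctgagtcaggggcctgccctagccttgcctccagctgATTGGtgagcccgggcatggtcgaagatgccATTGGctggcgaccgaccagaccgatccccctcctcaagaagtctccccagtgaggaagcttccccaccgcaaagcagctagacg
Fdps, chr2:176804767-176805066 (minus strand): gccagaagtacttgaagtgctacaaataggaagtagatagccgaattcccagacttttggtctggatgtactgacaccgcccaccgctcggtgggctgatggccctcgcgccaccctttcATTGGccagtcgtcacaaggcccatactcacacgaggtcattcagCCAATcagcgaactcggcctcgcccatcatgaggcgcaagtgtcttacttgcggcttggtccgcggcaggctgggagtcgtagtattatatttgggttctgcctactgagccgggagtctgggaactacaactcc

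CACCCCA on either strand was found in 2 of the 7 promoters, Srebf2 at position -155 and Tm7sf2 at position 26 on the opposite strand, counting the first transcribed base as 1. Of all 33469 promoters of this length, 6.93% held it. CCAAT was found in 5 of 7 promoters, against 37.5% of all promoters, and was absent from those of Cyp51 and Dhcr7. Hmgcs1 carried CCAAT on the opposite strand at positions -188 and -133, Idi1 carried it there at -66 and -35, and Fdps carried it at -130 on the opposite strand and at -85 on its own. The GC box GGGCGG was found in 6 of 7, against 33.1% of all. The E-box CACGTG was found in 0 of 7, against 6.42%. No motif here overlapped another in the 5 sequences shown. These are matches of letters, and binding was not measured.

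No member passed the test for the dam's diet. In limma's fit across all 20756 features, 0 of 9 members reached an adjusted p under 0.05 in any of the 4 comparisons that involve diet, and 0% of all features did. For the mean of the sexes the smallest adjusted p was 0.589 among the members and 0.198 over all features. Without that adjustment, p was under 0.05 with a lower level in CR pups for 2 of 9 members, Tm7sf2 and Fdps, and for 4.87% of all features, and 7.35% of features reached it in either direction. The CR minus control difference was negative for 8 of 9 members, with a median of -0.08 log2 units, while 49.1% of all features were negative, with a median of 0.0013. Leaving out CR male replicate 2 gave 3 calls among all features for the mean of the sexes and 4 in males, and no member was called. In bulk cells, fewer cells of a type and less RNA per cell cannot be told apart.

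Srebf2 was measured by a probe at chr7:120548399-120548458 on rn4. Its log2 ratios were 0.02, 0.11, 0.13, 0.43 and 0.69 in the 5 CR males, against a lowest, median and highest value of -0.17, 0.02 and 0.35 in control males. In females they were -0.23, 0.11 and 0.26 with CR, against -0.16, 0.32 and 0.91 in controls. So 2 CR males lay above every control male, while 4 control females lay above every CR female, and the groups overlapped in both sexes. The difference was 0.25 ± 0.15 (SE, adjusted p = 0.755) in males, a 1.187-fold level, and 0.14 without CR male replicate 1. In females it was -0.31 ± 0.14 (unadjusted p = 0.0387, adjusted p = 0.995), a 0.806-fold level, and -0.21 without control female replicate 1 (unadjusted p = 0.133). Within slides the female difference was negative on 6 of 6 slides (-0.65 to -0.07), and the male difference was negative on 1 of 4 (-0.0007 to 0.42).

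The male and female differences of Srebf2 were 0.56 ± 0.21 log2 units apart (95% interval 0.13 to 0.98), with an unadjusted p of 0.0125 and an adjusted p of 0.936. Srebf2 was the only member under 0.05 there before adjustment, and 1.97% of all features were so in that direction. The male difference minus the female one was negative for 5 of 9 members and 52.4% of features. No feature was called for this interaction, with 4.67% under 0.05 before adjustment in either direction. The second Srebf2 probe (chr7:120569291-120570130) gave -0.0037 ± 0.054 in males and -0.04 ± 0.052 in females. It was much dimmer, with a median Cy5 intensity of 73.7 against 297.3 for the first probe and a local background of 28.5. It was well above background on 22 of 23 arrays. Over the 23 arrays it followed the first probe weakly, with Pearson's r of 0.189 between their deviations from the group means. The opposite signs in the sexes were thus seen with the brighter probe alone. Whether a probe as dim as the second could show differences of that size was not tested.

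**Figure D1:**
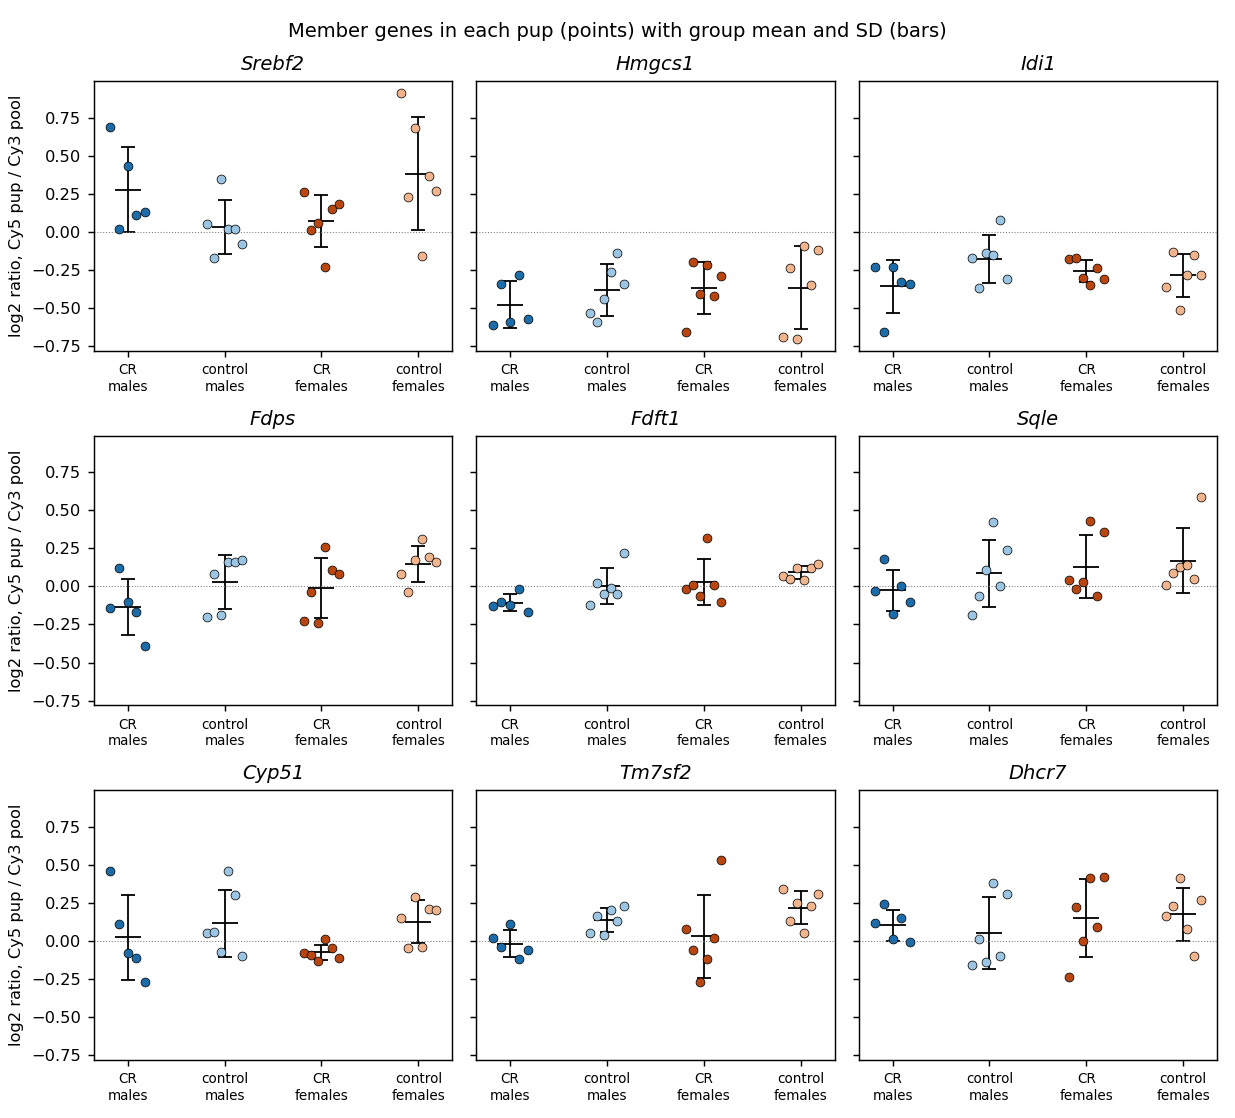
Log2 ratio of Cy5 (pup) to Cy3 (pool) of each member in every pup, with the CR group left of its control group in each sex; points are pups and bars are the group mean and SD. All 9 genes overlap between CR and control pups in both sexes, and Srebf2 has the widest spread, from -0.23 to 0.91.

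The mevalonate arm makes the isoprenoid diphosphates. Hmgcs1 encodes the cytosolic synthase that condenses acetoacetyl-CoA with acetyl-CoA, and its probe lies at chr2:51754420-51754478 on rn4. CR males had -0.61, -0.59, -0.57, -0.34 and -0.28, against -0.59, -0.39 and -0.14 (lowest, median, highest) in control males. CR females had -0.66, -0.35 and -0.20, against -0.70, -0.29 and -0.09 in control females. The ratio was negative on every array although the pool was made of these samples, so its 0 is not the level of an average pup here, and only differences between pups are read. The groups overlapped over most of their range. The difference for the mean of the sexes was -0.05 ± 0.080 (adjusted p = 0.944), with a 95% interval from -0.21 to 0.12. On the 4 slides that hold both diets in males it was negative each time, and in females on 3 of 6 slides.

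Idi1 encodes the isomerase that interconverts isopentenyl and dimethylallyl diphosphate (chr17:72557224-72557283). CR males had -0.66, -0.34, -0.33, -0.23 and -0.23, against -0.37, -0.16 and 0.08 in control males. The 5 CR males were all below the control mean of -0.18, and 4 control males were above every CR male. CR females had -0.35, -0.27 and -0.17, against -0.51, -0.28 and -0.13 in control females, with 3 CR females below the control mean. The difference was -0.18 ± 0.084 in males (unadjusted p = 0.0421, adjusted p = 0.688) and 0.03 ± 0.080 in females (adjusted p = 0.996). Idi1 was the single member under 0.05 in males before adjustment, with a lower level in CR males, as were 4.07% of all features, with 7.19% under 0.05 in either direction. CR male replicate 2 held the lowest value, and without it the male difference was -0.11.

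Fdps encodes farnesyl diphosphate synthase, whose product is the branch point to sterols, prenylated proteins and other isoprenoids (chr2:181169679-181170179). CR males had -0.39, -0.17, -0.14, -0.10 and 0.12, against -0.20, 0.12 and 0.17 in control males. CR females had -0.24, 0.02 and 0.26, against -0.04, 0.17 and 0.31 in control females. In males 4 of 5 CR pups, and in females 5 of 6, were below the control mean of their sex, yet the ranges overlapped. The difference was -0.17 ± 0.10 in males, or -0.10 without CR male replicate 5, and -0.16 ± 0.096 in females. Their mean was -0.16 ± 0.069 (95% interval -0.30 to -0.02, unadjusted p = 0.0295, adjusted p = 0.637), a 0.894-fold level. It was negative on 3 of 4 slides in males and 5 of 6 in females.

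A total of 3 probes carried the symbol Fdps. A neighbouring probe (chr2:181170192-181170336) gave -0.16 ± 0.054 for the mean of the sexes and followed the first with r of 0.942. A probe designed on another transcript (chr2:181158404-181158463) gave -0.18 ± 0.12 and followed the first with r of 0.192. For Hmgcs1 the other probe (chr2:51751804-51751863) gave -0.07 ± 0.061, and the probes' deviations ran opposite to each other (r of -0.323). The other Idi1 probe (chr17:72560094-72560498) gave -0.05 ± 0.037, with r of 0.312. So, for the mean of the sexes, the probes of a gene lay on the same side of 0 for all 4 genes that had several, while array by array they tracked each other closely for a single pair of Fdps probes.

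**Figure D2:**
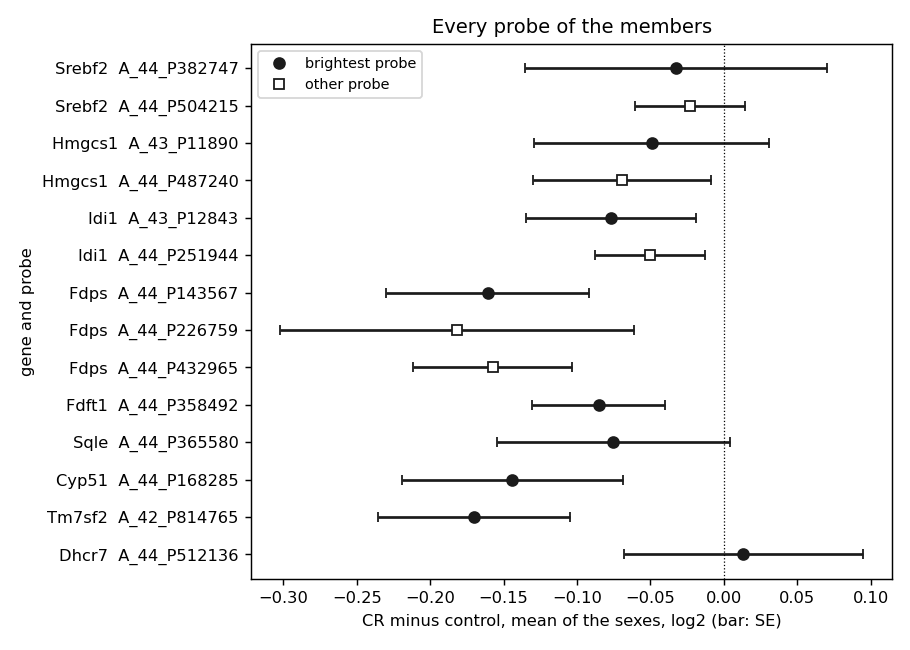
CR minus control difference, as the mean of the sexes, for each of the 14 probes, in log2 units with its standard error; filled circles are the brightest probe of a gene and open squares its other probes. Dhcr7 alone is to the right of 0, at 0.01, and the 3 Fdps probes sit between -0.18 and -0.16.

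The squalene step commits the pathway to sterols. Fdft1 encodes squalene synthase, which joins farnesyl units head to head (chr15:42436506-42436565). CR males had -0.17, -0.13, -0.12, -0.10 and -0.02, against -0.12, -0.03 and 0.22 in control males. CR females had -0.10, -0.01 and 0.32, against 0.04, 0.09 and 0.15 in control females. A total of 5 CR females lay below every control female, and the last, replicate 4 at 0.32, lay above them all. The difference was -0.11 ± 0.065 in males and -0.06 ± 0.062 in females, and their mean was -0.09 ± 0.045 (adjusted p = 0.733). Without CR female replicate 4 the female difference was -0.12. Fdft1 had the smallest spread of the members, with a within-group SD of 0.104 at percentile 22.7 of all features. Its probe was also the dimmest of the members' brightest probes. Its median Cy5 intensity was 96.3 against a local background of 28, and the other members had medians of 293.4 to 1838. The part of low signal in the small spread was not tested.

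Sqle encodes squalene epoxidase, a second control point of the pathway (chr7:96111449-96111508). CR males had -0.18, -0.10, -0.03, 0.00 and 0.18, against -0.19, 0.05 and 0.42 in control males. CR females had -0.06, 0.03 and 0.43, against 0.01, 0.11 and 0.59 in control females. Most of each range was shared by CR and control pups of the same sex. The difference was -0.11 ± 0.11 in males and -0.04 ± 0.11 in females, and their mean was -0.08 ± 0.079 (adjusted p = 0.906). In males it was negative on 4 of 4 slides, and in females on 4 of 6.

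The later enzymes reshape the sterol ring. Cyp51 encodes lanosterol demethylase (chr4:26769628-26769687). CR males had -0.27, -0.11, -0.08, 0.11 and 0.46, against -0.10, 0.05 and 0.46 in control males. CR females had -0.13, -0.08 and 0.01, against -0.05, 0.17 and 0.29 in control females. The 6 CR females were close together, with an SD of 0.0505, and all lay below the control female mean of 0.12, while 4 control females lay above every CR female. The difference was -0.09 ± 0.11 in males (adjusted p = 0.886) and -0.20 ± 0.10 in females (unadjusted p = 0.072, adjusted p = 0.995). The male direction turned with the processing: it was 0.18 with the scanner software's own ratio, 0.16 without background subtraction, 0.17 in the deposited value table and 0.15 from Cy5 alone. Without CR male replicate 5 it was -0.02.

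Tm7sf2 encodes a sterol reductase that acts on the product of Cyp51 (chr1:208700867-208700926). CR males had -0.12, -0.06, -0.04, 0.02 and 0.11, against 0.04, 0.15 and 0.23 in control males. CR females had -0.27, -0.02 and 0.53, against 0.05, 0.24 and 0.34 in control females. In each sex 4 CR pups lay below every control pup, and CR female replicate 6, at 0.53, lay above every control female. The difference was -0.15 ± 0.095 in males and -0.19 ± 0.090 in females. Their mean of -0.17 ± 0.066 (95% interval -0.31 to -0.03) had the smallest p among the members, 0.0164 before adjustment and 0.589 after it, and ranked 570 among the 20756 features. That is a 0.889-fold level. It was negative on 4 of 4 slides in males and 5 of 6 in females, and without CR female replicate 6 it was -0.22.

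Dhcr7 encodes the reductase of the final step of a route to cholesterol (chr1:204258565-204258624). CR males had -0.01, 0.01, 0.12, 0.15 and 0.24, against -0.16, -0.04 and 0.38 in control males. CR females had -0.24, 0.16 and 0.42, against -0.10, 0.19 and 0.41 in control females. CR pups lay inside the range of the controls in males and spread a little past both ends of it in females. The difference was 0.05 ± 0.12 in males and -0.03 ± 0.11 in females, and their mean was 0.01 ± 0.082 (adjusted p = 0.988). It was the single member with a positive mean, and that sign turned to -0.01 with the slides as a block and to -0.15 with median centring.

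**Figure D3:**
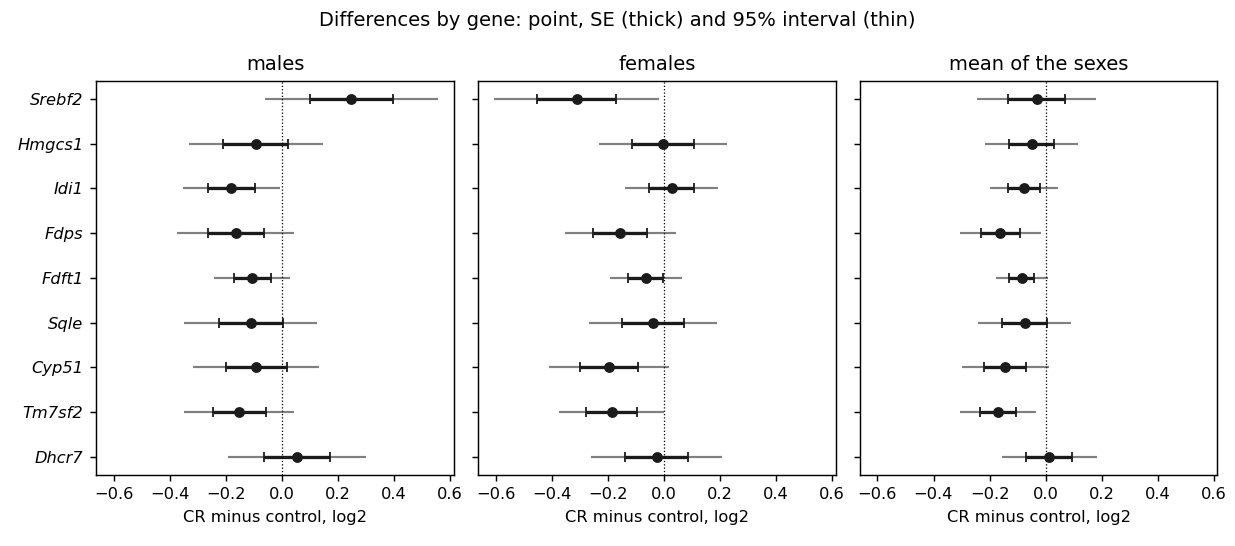
CR minus control difference of each member in males, in females and as the mean of the sexes, in log2 units; the point is the estimate, the thick bar its SE and the thin bar its 95% interval. Negative values are lower in CR pups; Srebf2 is at 0.25 in males and -0.31 in females, and Tm7sf2 and Fdps have intervals below 0 for the mean of the sexes.

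By sex, 7 of 9 members were negative in males, with a median difference of -0.11, against 52.7% of all features and a median of -0.0066. In females 8 of 9 were negative, with a median of -0.06, against 48.4% and 0.0032. Srebf2 was the single member under 0.05 before adjustment in females, as were 2.65% of all features in the lower direction and 4.64% in either. The members positive in males were Srebf2 and Dhcr7, and the member positive in females was Idi1. The members' own mean per pup was -0.0799 ± 0.0772 in CR males, against -0.0126 ± 0.102 in control males. It was -0.0336 ± 0.0907 in CR females, against 0.0727 ± 0.0577 in control females (SD). The lowest pup of all was CR male replicate 5, at -0.198, and the highest was control female replicate 6, at 0.172.

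Males and females, averaged over the diets, differed in 12 features, 0.0578% of those tested, and in 0 members. The male minus female difference was negative for 7 of 9 members, with a median of -0.07, against 50.7% of all features. Fdft1 had the smallest p, with a difference of -0.11 ± 0.045 (unadjusted p = 0.0196, adjusted p = 0.664), and 3.73% of all features had a p under 0.05 in that direction and 7.39% in either. The positive members were Cyp51 at 0.04 ± 0.075 and Idi1 at 0.01 ± 0.058.

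Spread among pups of a group differed between the members. The within-group SD of Srebf2 was 0.261 log2 units, at percentile 88.2 of all features, whose median SD was 0.137. Dhcr7, Hmgcs1 and Sqle lay between percentiles 77.1 and 78.7, and Idi1 at 52.6. Over all 23 pups the highest Srebf2 level was 2.2 times the lowest, and for Fdft1, whose probe was the dimmest, this ratio was 1.41.

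Pups that were high for a member were not uniformly high for the others. Over the 23 arrays, after removal of group means, Pearson's r was positive for 23 of the 36 pairs of members, with a median of 0.22. A member's median r with all features was between -0.0148 and 0.0396, and its 95th percentile between 0.401 and 0.583. Counted from each member, 5 of 72 values of r with another member (6.94%) were above that percentile. By a two-sided permutation test within groups, adjusted over the 36 pairs, 2 pairs passed. Sqle and Dhcr7 varied together (r = 0.682, permutation p = 0.002, adjusted p = 0.035, rho = 0.636, adjusted permutation p for rho = 0.084), and r was 0.692 without the 2 arrays farthest from the median of Sqle. Srebf2 and Hmgcs1 ran opposite to each other (r = -0.692, permutation p = 0.0019, adjusted p = 0.035, rho = -0.663, adjusted permutation p for rho = 0.084), and r was -0.621 without the 2 farthest arrays. Ranked from the highest r down among 20361 features, Dhcr7 was at 364 for Sqle, and Sqle at 213 for Dhcr7. Hmgcs1 was at 20169 for Srebf2, and Srebf2 at 20206 for Hmgcs1. Many features outside the set were thus closer to these genes, or more opposite to them. All pairs share the array's normalization and the pool, and the count of pairs that passed was 23 with median centring, 1 with the scanner's own ratio and 0 without the 2 farthest arrays of each pair. Both pairs still passed without any of control male replicate 3, control female replicate 6, CR female replicate 2 or CR male replicates 4 and 5. A single pair passed without control male replicate 2 or control female replicate 3, and none passed without any other single array.

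Removal of slide means moved these relations. Srebf2 with Hmgcs1 gave r = -0.698 (adjusted permutation p = 0.042), while Sqle with Dhcr7 gave 0.501 (adjusted permutation p = 0.11). Fdps with Dhcr7 gave 0.708 (adjusted permutation p = 0.023). Srebf2 with Tm7sf2 gave 0.546 (adjusted permutation p = 0.042), against 0.381 (adjusted permutation p = 0.16) with group means alone removed. With slide means removed, the test still permuted arrays within groups and across slides. The permutation p-values for that setting may therefore be too small, and these pairs are not counted as passing. The dimmer Srebf2 probe had r of 0.142 with Tm7sf2, with group means alone removed. The second probes did not repeat the Srebf2 and Hmgcs1 relation: the dimmer Srebf2 probe with the brighter Hmgcs1 probe had r of -0.342, the brighter Srebf2 probe with the dimmer Hmgcs1 probe 0.419, and both dimmer probes 0.359. With group means alone removed, Fdps, Fdft1, Sqle and Dhcr7 had positive r with each other in all 6 of their pairs, from 0.46 to 0.682. This block was not set in advance. Of its pairs Sqle with Dhcr7 alone passed, and the others had adjusted permutation p of 0.12 to 0.23. Without the 2 farthest arrays, Fdft1 had r of 0.215 with Dhcr7 and 0.248 with Sqle. The Fdps probe designed on another transcript had r of 0.165 to 0.294 with Fdft1, Sqle and Dhcr7. Idi1 was negative with each of the 4 genes of the block, from -0.473 with Dhcr7 to -0.288 with Sqle, and no Idi1 pair passed. The first Idi1 probe stayed negative with these 4 genes with slide means removed (-0.557 to -0.237) and with the scanner's own ratio (-0.49 to -0.0702). With median centring it had r of 0.288 to 0.642, where the members' median r with all features was itself 0.387. The second Idi1 probe had r of 0.0202 to 0.336 with the brightest probes of the same 4 genes. So the negative sign was not repeated by the second probe or under median centring.

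**Figure D4:**
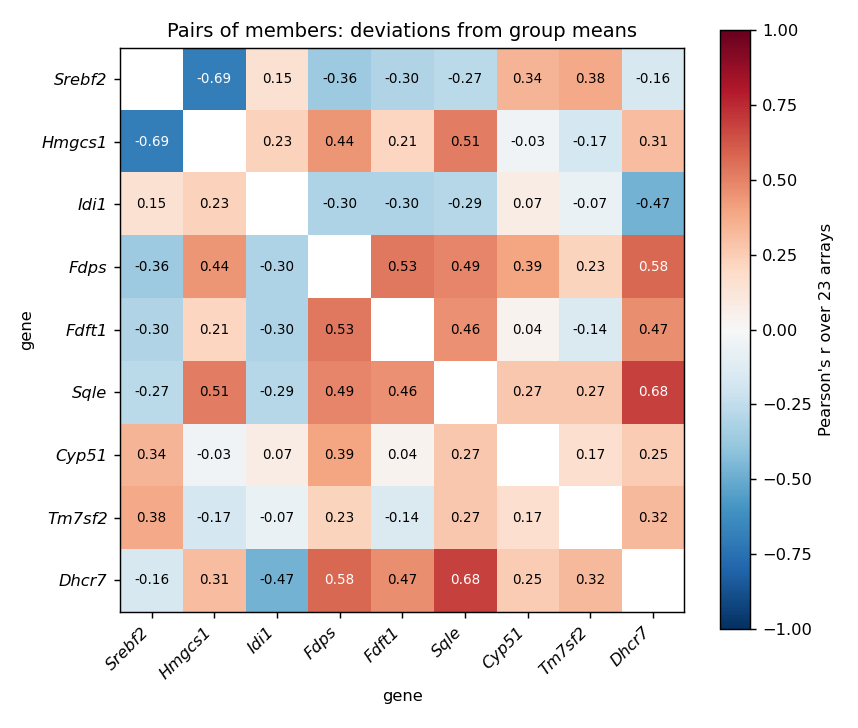
Pearson's r over the 23 arrays for each pair of members, on deviations of the log2 ratio from the group means; red is positive and blue negative. The block of Fdps, Fdft1, Sqle and Dhcr7 is positive throughout, though within it Sqle with Dhcr7 alone passed the test. Srebf2 with Hmgcs1 is the lowest cell at -0.69.

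The named genes outside the set whose deviations followed the members' mean z-score most closely over the 23 arrays were Mavs (r of 0.794), Ascl4 (0.791), Tceal8 (0.779), Ppp2r1b (0.777), Timm13 (0.776) and Lin54 (0.773), out of 9847 ranked. Mvd, mevalonate diphosphate decarboxylase, which stands just before Idi1 in the pathway, ranked 9 with r of 0.751. The other enzymes of the pathway ran down to Lss, at rank 9418 with r of -0.45. Genes of the isoprenoid branches outside sterol synthesis ran from Icmt, which methylates prenylated proteins, at rank 29 with r of 0.701. The lowest was Rabggtb, a subunit of the enzyme that prenylates Rab proteins, at rank 9610 with r of -0.506. These r describe the same arrays and carry no test.

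The other enzymes of the pathway were measured for 13 of 13 genes, and 0 passed the test or had a p under 0.05 before adjustment for the mean of the sexes. Their differences were negative for 12 of 13, with a median of -0.04. Mvd stood at -0.11 ± 0.094 (adjusted p = 0.864), and Mvk, mevalonate kinase, at -0.11 ± 0.066 (adjusted p = 0.777). Ebp stood at -0.05, Pmvk at -0.04 and Hsd17b7 at -0.03. Lss, the cyclase that forms lanosterol, was the single positive one at 0.01.

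Genes of sterol sensing, uptake and storage were measured for 15 of 19, with a median of -0.02 and 8 negative. None passed the test. Srebf1, which encodes the related factor SREBP1, stood at -0.18 ± 0.065 (unadjusted p = 0.0123, adjusted p = 0.589). Lipa, the lysosomal lipase that frees cholesterol from its esters, stood at -0.23 ± 0.11 (adjusted p = 0.682). Mbtps2, a protease that cleaves SREBP, stood at 0.05. Erlin1 was well above background on 6 of 23 arrays and was not tested.

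Of the genes of the isoprenoid branches outside sterol synthesis, 12 of 13 were measured, 8 were negative and the median was -0.01. Fntb, the beta subunit of farnesyltransferase, was positive at 0.60 ± 0.18 (unadjusted p = 0.00256, adjusted p = 0.589), and 0.39 with the mean of its 2 probes. Pggt1b, the beta subunit of another protein prenylating enzyme, stood at 0.09 and Fnta, the subunit that pairs with both, at 0.06. Pdss2 and Coq2, which build ubiquinone, stood at -0.09 and -0.08, and Icmt at -0.07. None passed the test.

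Markers of blood cell types also differed between CR and control pups, by amounts that did not pass the test. All 9 measured B cell markers were negative for the mean of the sexes, with a median of -0.40, and 8 of them had an unadjusted p under 0.05, though none passed the test (smallest adjusted p = 0.498). Their mean per pup ran from -0.645 to 0.106 in CR males, against -0.0855 to 0.609 in control males, and from -0.3 to 0.24 in CR females, against 0.0136 to 0.784 in control females. With group means removed, the members' mean z-score followed the B cell mean with r of 0.596 and rho of 0.529, r of 0.457 without the 2 farthest arrays and r of 0.657 with slide means removed too. Sqle was the member closest to it, with r of 0.594, and Idi1 the least, with -0.0896. With the B cell mean as a covariate, the median difference of the members was -0.05 for the mean of the sexes, -0.02 in males and -0.03 in females. In that fit Tm7sf2 stood at -0.07 ± 0.076 and Fdps at -0.05 ± 0.08, while Sqle turned to 0.09 ± 0.084 for the mean of the sexes.

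Cycling cell markers, 14 of 15 measured, were negative in males for 14 of 14 and positive in females for 12 of 14, with medians of -0.17 and 0.14. Their mean followed that of the members with r of 0.485 and rho of 0.458, and r of 0.353 with slide means removed. With the cycling cell mean as a covariate, the members' median difference was -0.08 for the mean of the sexes. Among the other lists, r with the members' mean z-score was 0.447 for plasma cells, 0.299 for neutrophils, 0.285 for red cells, 0.217 for monocytes, -0.143 for platelets, -0.324 for natural killer cells and -0.422 for T cells. Without the 2 farthest arrays these were 0.396 for plasma cells, 0.0625 for neutrophils, 0.483 for red cells, 0.247 for monocytes, -0.283 for platelets, -0.593 for natural killer cells and -0.172 for T cells. With slide means removed the neutrophil value was -0.049. For the mean of the sexes, neutrophil markers were positive for 5 of 6, with a median of 0.30 and 2 with an unadjusted p under 0.05, and natural killer markers for 6 of 8, with a median of 0.10. Platelet markers were negative for 5 of 6, with a median of -0.16, plasma cell markers for 3 of 4, with a median of -0.12, and T cell and monocyte markers had medians of 0.0069 and 0.02. Monocyte markers were positive for 10 of 11 in males and negative for 10 of 11 in females. Red cell markers were positive for 8 of 8 in males and negative for 8 of 8 in females, with medians of 0.72 and -0.31, and the part of these cell types in the members' values was not tested.

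**Figure D5:**
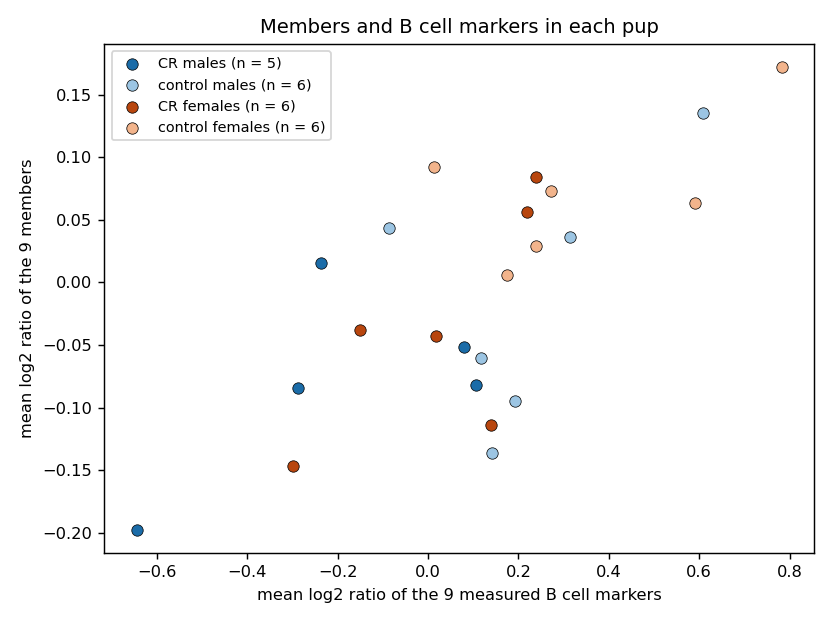
Mean log2 ratio of the 9 members against the mean log2 ratio of the 9 measured B cell markers, 1 point per pup, coloured by group. CR male replicate 5 is lowest on both axes, at -0.645 and -0.198, and control female replicate 6 is highest on both, at 0.784 and 0.172.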

How the data were processed

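Gene expression was measured on Agilent rat arrays of 23 pups. The submitters' processing notes name Agilent Feature Extraction 10.5.1.1. Deposited scanner files give unnormalized spot intensities, a log10 ratio of Cy5 to Cy3 after the software's background and dye correction, and other columns of spot flags, per the file headers. A deposited table of values holds log2 levels with column medians of 7.16 to 7.17; they follow each array's Cy5 intensity (r of 0.987 to 0.998), and how they were scaled and centred is not given in the sources used here. It served as an alternative.

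Mean intensities were background-corrected (normexp, offset 50) and loess-normalized within arrays with limma 3.58.1 in R 4.3.3, with no weight on controls in the loess fit. Controls and flagged outlier spots were left out after this step. Probes well above background on 50% of the arrays of at least 1 group were kept (23693 of 41012), and each gene was represented by its brightest kept probe, on 20756 features. Symbols came from the rat RefSeq table of build GRCr8, which named 19696 probes; the members were found by the scanner files' own symbols. Probe positions follow the array design, on rn4, which gives no exon or UTR annotation here. The fit used 4 group means, moderated variances and Benjamini-Hochberg adjustment over all features. It was tested on simulated data. No arrays held identical values. Replicates are separate pups, per the labels.

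The members and all gene lists were chosen with earlier results of these data known. Named genes are every member, the 6 of each wider list with the smallest p for the mean of the sexes, and the 6 closest to the members' mean; Lss, Rabggtb and Erlin1 were named after their values were seen. Some genes that this rule names are not reported here. Slides, read from the array barcodes, number 6, and 4 hold all groups. Alternatives covered background, normalization, filter, probe choice, array weights, slide and replicate blocks, marker covariates and leaving out each array.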

Additional observations from a re-analysis of the deposited data

Results flagged for a closer look

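In 3 of the 36 combinations of member and group, a single pup stood apart from its group by more than Dixon's limit, and chance gives about 1 in 20. Idi1 in CR male replicate 2 was -0.66, and the nearest CR male was at -0.34. Fdft1 in CR female replicate 4 was 0.32, and the nearest CR female was at 0.01. Sqle in control female replicate 6 was 0.59, and the nearest control female was at 0.14; that pup also had the highest B cell marker mean, 0.784.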

How the results depend on the processing

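No member passed the test under any alternative. Of 1588 recomputed gene differences 1545 kept their sign and 43 turned, 19 of them by leaving out 1 array. The count of features called for the mean of the sexes was 0, 2 with array weights and 0 to 3 without single arrays; in males it was 0, 1 with the replicate block and 0 to 4 without single arrays, the highest without CR male replicate 2. Median centring shifted the median of all features to -0.10 and the members' median to -0.28. It turned Srebf2 in males (-0.00645), Idi1 in females (-0.00335), Dhcr7 (-0.153, and -0.228 in males) and Fnta (-0.109). Scale normalization turned Idi1 (-0.0711) and Dhcr7 (0.0346) in females. The scanner software's ratio, no background subtraction and the deposited value table gave 0.181, 0.161 and 0.168 for Cyp51 in males, and 0.0159, 0.0234 and 0.0536 for Dhcr7 in females; the table gave 0.00242 for Srebf2. Cy5 alone gave 0.145 for Cyp51 in males. The slide block turned Dhcr7 to -0.0112. The B cell covariate turned Hmgcs1 (0.0129, and 0.0499 in females), Sqle (0.0897, with 0.0742 in males and 0.105 in females), Dhcr7 in females (0.0483), Mvd (0.0512) and Pmvk (0.00362). Without single arrays, the difference ranged from -0.0865 to 0.0201 for Srebf2 and from -0.0139 to 0.0525 for Dhcr7, and in females from -0.072 to 0.0548 for Hmgcs1, -0.0173 to 0.058 for Idi1, -0.0987 to 0.045 for Sqle and -0.0803 to 0.0523 for Dhcr7. The cause of these turns was not tested.

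Of 36 pairs of members, 2 passed, against 23 with median centring, where the members' median r with all features was 0.387; 1 with the scanner's ratio; 0 without the 2 farthest arrays; and 0 to 2 without single arrays. Pups of the same replicate number did not deviate together throughout (r of -0.413 to 0.465 between groups). A total of 3 of 5 CR males and 2 of 6 CR females correlated best with the control of their own number. The CR and control females of a number always shared a slide, so number and slide cannot be told apart there. The highest r, 0.444 and 0.465, were between control males and control females on the same slide. The labels name no pairs, and the numbers were not taken as pairs. In the diet comparisons the replicate block gave the 1 call in males named above and no other. Between males and females it gave 9 calls, against 12 without it. All arrays were scanned on 1 day, so the planned scan-day block was not run. The members' brightest probes were well above background on all 23 arrays.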
